A study of Mus musculus with 8 samples.

Results

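The genes described here belong to the unfolded protein response and the integrated stress response, measured as mRNA in mouse aortic tissue. The genes were chosen by symbol for their known roles, with earlier results of these data known. All 36 were among the 13839 genes of the deposited table. They fall into 14 chaperones and folding enzymes of the endoplasmic reticulum (ER), 4 genes of ER-associated degradation, 7 stress sensors and transcription factors, and 11 targets of the transcription factor ATF4. Of the 8 libraries, 5 are labelled control and 3 TAD, a model of thoracic aortic dissection. From 3 weeks of age TAD mice received β-aminopropionitrile monofumarate for 4 weeks (1 g/kg/day). This compound blocks lysyl oxidase and with it the crosslinking of the aortic matrix. At 7 weeks of age a minipump under the skin delivered angiotensin II, a peptide that constricts vessels, at 1 µg/kg per min, and the mice were killed 24 h later. Treatment of the control mice, strain, sex, the part of the aorta and any pooling are not given in the sources used here, so TAD against control covers both agents together. Whether every library is its own mouse is not stated either, and the spread behind each p-value may therefore be technical.

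Secreted and membrane proteins fold in the ER with the help of chaperones such as BiP (Hspa5) and of protein disulfide isomerases. When unfolded proteins accumulate, the sensors IRE1α (Ern1), ATF6 and PERK (Eif2ak3) act: IRE1α splices Xbp1 mRNA, cleaved ATF6 enters the nucleus, and PERK phosphorylates eIF2α. XBP1 and ATF6 raise chaperone and degradation genes. Phosphorylated eIF2α, which other kinases also produce during amino acid shortage, heme shortage or viral infection, slows translation but favours that of ATF4, which raises genes of amino acid supply, one-carbon metabolism and, through CHOP (Ddit3), cell death. Gene counts do not show eIF2α phosphorylation, Xbp1 splicing or protein.

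The libraries held between 12042971 (TAD 1) and 15039132 (TAD 3) counts, and single members had from 27 (Chac1) to 12965 (Hspa5) counts per library. Smooth muscle markers were present in every library but with summed levels of 2473 to 12112 CPM (counts scaled to the library total) in control and 870 to 5012 CPM in TAD. Cardiomyocyte markers summed to 17901 CPM in control 1 and 12179 CPM in TAD 1 against 39.0 to 3060 CPM in the other libraries. The neuronal gene Tubb3 stood at 671 CPM in TAD 2, against 0.298 to 40.5 CPM elsewhere, and Ckm of skeletal muscle at 721 CPM in control 2. Macrophage and monocyte markers summed to 342 to 666 CPM in control and 924 to 1498 CPM in TAD, with 6 of 10 called higher, and neutrophil markers to 8.20 to 124 and 428 to 1275 CPM, with 6 of 9 called higher. White adipocyte markers summed to 4495 to 5237 CPM in control and 1412 to 2414 CPM in TAD, with 4 of 6 called lower. Brown adipocyte markers summed to 2407 to 3960 and 806 to 2000 CPM, with 1 of 4 called lower. Endothelial markers summed to 1215 to 1679 CPM in control and 860 to 1160 CPM in TAD, with 4 of 6 called lower. Fibroblast markers (1490 to 2875 CPM in control, 683 to 5273 CPM in TAD), T and NK cell markers (4.33 to 6.83 and 2.82 to 9.86 CPM) and the 5 plasma and B cell markers in the table (41.7 to 93.9 and 54.5 to 111 CPM) overlapped between the groups. Schwann cell markers summed to 937 CPM in TAD 2 and to 42.6 to 221 CPM elsewhere. No marker in the table was without counts in all 8 libraries. The part of these mixtures in the results below was not tested, and in bulk tissue fewer cells of a type and less RNA per cell cannot be told apart.

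Promoter windows from RefSeq on GRCm38.p6, reaching from 250 bases before to 50 bases after a gene's start, were found for 33 of the 36 genes. Their sequences are shown because the rule that named the members used no sequence. It did name genes for known roles in the ATF6, XBP1 and ATF4 arms. Counts of elements from these arms are therefore not independent of that choice. Part of the chaperone windows and a smaller part of the ATF4 target windows also carry different letters. The ER stress response element (ERSE), which ATF6 binds together with NF-Y, was searched on both strands as CCAAT, any 9 bases, then CCACG. It occurred in 7 of the 12 chaperone genes with a window, in 1 of the 4 degradation genes, and in none of the 11 ATF4 targets or of the 6 sensor and factor genes with a window, against 0.119% of all 32851 windows. In the first set of sequences the capitals mark both ends of each ERSE, read as CGTGG and ATTGG where the match lies on the other strand.

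Hspa5 (chr2:34772000-34772068, plus strand): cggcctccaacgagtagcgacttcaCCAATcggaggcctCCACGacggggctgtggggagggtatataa
Hsp90b1 (chr10:86705508-86705681, minus strand): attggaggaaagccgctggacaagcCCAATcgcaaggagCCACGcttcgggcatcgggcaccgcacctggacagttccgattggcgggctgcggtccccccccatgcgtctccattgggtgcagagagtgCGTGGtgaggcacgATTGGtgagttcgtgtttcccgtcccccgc
Calr (chr8:84847050-84847118, minus strand): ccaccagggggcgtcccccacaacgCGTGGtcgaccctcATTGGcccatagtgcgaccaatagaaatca
Canx (chr11:50325775-50325843, minus strand): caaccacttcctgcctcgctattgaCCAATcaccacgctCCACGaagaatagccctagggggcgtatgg
Creld2 (chr15:88819495-88819563, plus strand): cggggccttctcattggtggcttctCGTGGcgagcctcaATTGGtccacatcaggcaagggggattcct
Syvn1 (chr19:6046507-6046575, plus strand): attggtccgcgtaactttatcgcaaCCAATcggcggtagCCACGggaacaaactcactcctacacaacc

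Hsp90b1 held 2 such elements, in opposite orientations. Pdia6 and Dnajc3 completed the set of chaperone genes with the element. Dnajb11, Sdf2l1, Pdia3, Pdia4 and Dnajb9 had windows without it, and Manf, Hyou1 and Atf6 had no window. The shorter CCAAT alone, which is also part of every ERSE, was in all 12 chaperone windows against 37.4% of all windows. The letters TGACGTGG of the XBP1-binding element, searched on both strands, were in no member's window and in 0.676% of all windows.

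The element of C/EBP and ATF dimers (CARE) was searched as TGATGNAA on both strands. It was found in the windows of 3 of the 11 ATF4 targets (Asns, Chac1 and Trib3) and of Herpud1, and in none of the chaperone windows, against 3.97% of all windows. It shares no required letters with the ERSE. Capitals in the second set mark this element, on either strand.

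Asns (chr6:7693200-7693257, minus strand): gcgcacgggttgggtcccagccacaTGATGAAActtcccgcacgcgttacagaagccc
Chac1 (chr2:119351024-119351081, plus strand): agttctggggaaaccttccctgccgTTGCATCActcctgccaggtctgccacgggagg
Trib3 (chr2:152344014-152344071, minus strand): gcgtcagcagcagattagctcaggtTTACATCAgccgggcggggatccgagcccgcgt
Herpud1 (chr8:94386292-94386349, plus strand): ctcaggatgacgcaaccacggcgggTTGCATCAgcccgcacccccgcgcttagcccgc

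A match of letters is a description and not a bound site. Among the 8 genes with an ERSE, Syvn1 alone passed the test between TAD and control, and among the 4 with a CARE, Chac1 alone passed. Of all genes tested 27.0% passed, and 15.2% of all genes tested were called higher in TAD, so these counts are no result about either element. Of the chaperones that passed, Dnajb11 had no ERSE and Manf had no window.

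Which of these genes differed 24 h after the pump was placed was read from TAD against control. In edgeR's quasi-likelihood test, adjusted by Benjamini-Hochberg over all 13701 genes tested, 10 of the 36 genes rose and 2 fell at an adjusted p below 0.05. Those are 27.8% and 5.56% of the members, where 15.2% of all genes tested were called higher and 11.8% lower, 27.0% in either direction. Manf and Dnajb11 among the chaperones rose, as did Syvn1 in degradation, Atf4, Xbp1 and Eif2ak3 among sensors and factors, and Mthfd2, Ddit4, Chac1 and Aldh18a1 among ATF4 targets. Atf5 and Phgdh fell. All 36 members passed the filter on low counts. Every TAD library lay above every control for 10 members, against 16.9% of all genes, and below every control for 2, against 15.0%. Without TAD 1 there were 5 higher and 1 lower, without control 1 there were 8 and 1, and without both, the libraries rich in cardiomyocyte markers, 4 and 1. Without TAD 1 and without both, Atf4, Manf, Dnajb11 and Mthfd2 were called, Ddit4 without TAD 1 only, and the gene called lower was Herpud1. Rescaling to TPM ended the calls of Dnajb11, Syvn1, Xbp1, Eif2ak3 and Aldh18a1 (limma adjusted p of 0.0640 to 0.303) and passed Herpud1 as lower; there 36.6% of all calls were higher, against 56.2% in edgeR's test.

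**Figure D1:**
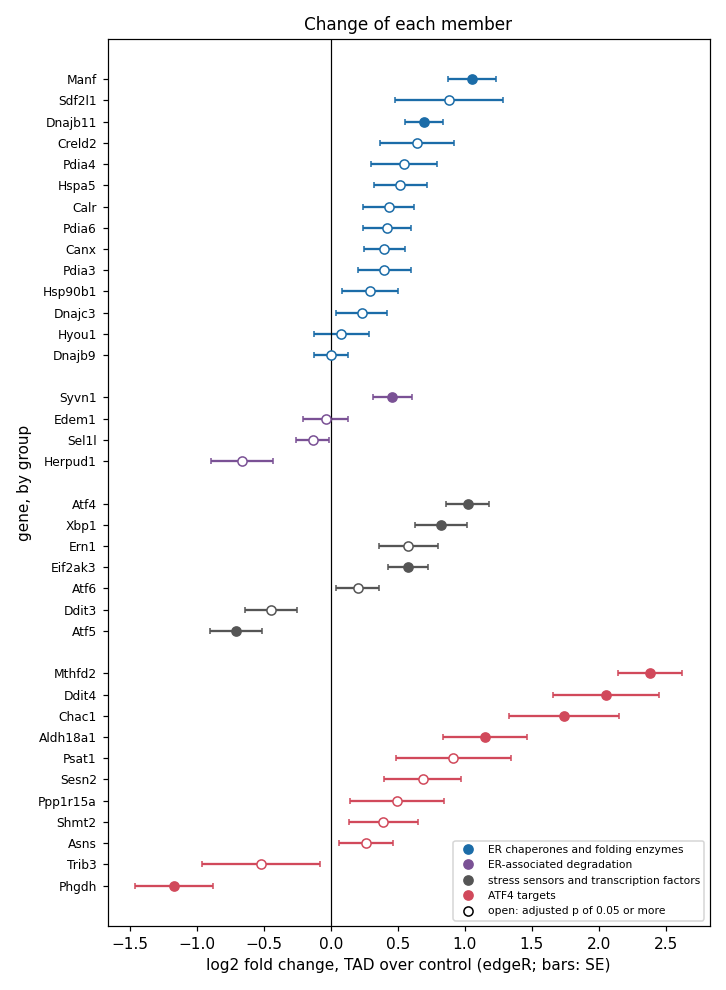
The horizontal axis gives each gene's edgeR log2 fold change of TAD (3 libraries) over control (5 libraries) with its standard error as a bar, and the vertical axis lists the 36 genes by group. Filled circles had an adjusted p below 0.05: 10 lie to the right of 0, from Syvn1 at 0.46 to Mthfd2 at 2.38, and 2 to the left, Atf5 at -0.71 and Phgdh at -1.17.

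The chaperones and the ATF4 targets are given side by side. The median log2 fold change was 0.43 for the 14 chaperones, with a range of 0.00 to 1.05, and 0.68 for the 11 ATF4 targets, with a range of -1.17 to 2.38, beside 0.04 for all genes tested. Of the chaperones 2 rose (14.3%, near the 15.2% of all genes), and of the ATF4 targets 4 rose (36.4%) and 1 fell. Mean log2 CPM of the chaperones, relative to the mean of the controls, was -0.28 to 0.28 in control and 0.31, 0.32 and 0.78 in TAD 1, TAD 2 and TAD 3. The same mean for the ATF4 targets was -0.04 to 0.04 in control and 0.97, 0.70 and 0.57 in TAD 1, TAD 2 and TAD 3. The chaperone mean was highest in TAD 3, with TAD 1 and TAD 2 level, and the ATF4 target mean was highest in TAD 1, although Mthfd2, Aldh18a1 and Shmt2 were highest in TAD 3. Among the TAD libraries, TAD 3 had the highest summed markers of fibroblasts (5273 CPM), smooth muscle (5012 CPM), macrophages and monocytes (1498 CPM) and brown adipocytes (2000 CPM). TAD 1 had the highest of neutrophils (1275 CPM), cardiomyocytes (12179 CPM), endothelium (1160 CPM), plasma and B cells (111 CPM) and T and NK cells (9.86 CPM). The gap between the medians was 0.26. Among libraries of a group, the mean of the ATF4 targets minus that of the chaperones varied by 0.36 (SD). That SD is a spread of single libraries and of means, so it does not measure the spread of the gap. Without TAD 1 the gap was -0.0037, and without control 1 and TAD 1 it was -0.0019. Without TAD 3 the chaperone median was 0.21. These gaps are descriptions, since members were not drawn at random and no test of the gap was made. With FPKM rescaled to TPM the median of all genes shifted to -0.13, and those of chaperones and ATF4 targets to 0.25 and 0.57.

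**Figure D2:**
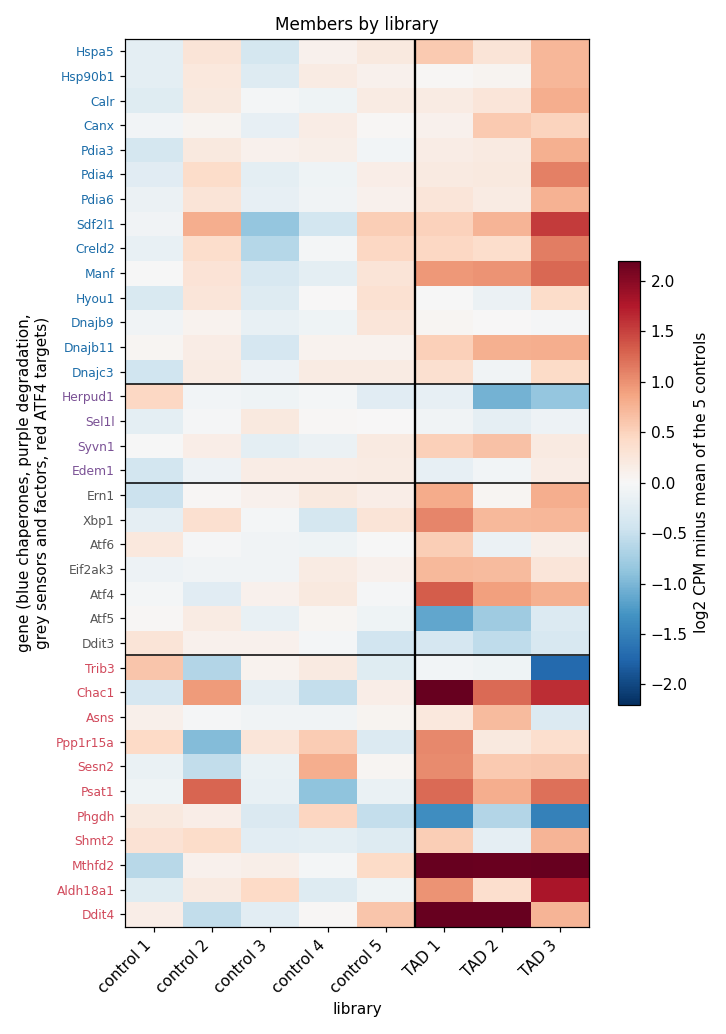
Each row is 1 of the 36 genes, grouped from chaperones at the top to ATF4 targets at the bottom, each column is 1 library, and colour gives log2 CPM minus the mean of the 5 controls. Mthfd2 is dark red in all 3 TAD libraries, most chaperones are reddest in TAD 3, and Phgdh and Atf5 are blue in each TAD library.

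Among the sensors and transcription factors, the mRNAs of ATF4, XBP1 and PERK rose and that of ATF5 fell. Atf4, the translationally controlled bZIP factor at the centre of the integrated stress response, had 110, 95.3, 120, 131 and 111 CPM in controls 1 to 5 and 284, 212 and 194 CPM in TAD 1 to 3. The lowest TAD library thus lay well above the highest control, and the log2 fold change was 1.02 ± 0.16 (SE; edgeR adjusted p = 0.00285), a 2.03-fold rise. It was called with each library left out and under every other setting tried. Xbp1, substrate of IRE1α and factor of the chaperone arm, had 159, 230, 175, 139 and 219 CPM in control and 381, 296 and 299 CPM in TAD. The groups did not overlap, and the log2 fold change was 0.82 ± 0.20 (adjusted p = 0.0162), or 0.68 without TAD 1 (adjusted p = 0.0706). Gene counts join spliced and unspliced Xbp1. Eif2ak3, which codes for PERK, had 23.1 to 28.3 CPM in control and 41.3, 41.0 and 30.3 CPM in TAD, all above the controls. Its log2 fold change was 0.58 ± 0.15 (adjusted p = 0.0210), and it was not called without TAD 1 (0.49, adjusted p = 0.0818) or TAD 2 (0.51, adjusted p = 0.0526). A gene on the opposite strand shares 8.05% of its exon bases.

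The other sensors did not pass. Ern1, the IRE1α gene, had 26.4 to 42.8 CPM in control and 65.0, 37.7 and 64.3 CPM in TAD, so that TAD 2 lay inside the control range while TAD 1 and TAD 3 lay above it. Its log2 fold change was 0.58 ± 0.22 (edgeR adjusted p = 0.0845), and without TAD 2 it was 0.79 and passed (adjusted p = 0.0172). Atf6 had 81.2 to 102 CPM in control and 126, 80.1 and 95.2 CPM in TAD, with 0.20 ± 0.16 (adjusted p = 0.387). Control 1 was the highest control for Atf6 and the lowest for Ern1.

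CHOP and ATF5, both factors downstream of ATF4, had negative log2 fold changes while Atf4 rose. Ddit3, the CHOP gene, had 18.7, 16.4, 16.5, 14.9 and 11.4 CPM in controls 1 to 5 and 11.9, 10.3 and 12.0 CPM in TAD 1 to 3. Control 5 fell within the TAD range and the other controls lay above it, and the log2 fold change was -0.45 ± 0.19, which did not pass (edgeR adjusted p = 0.117). Exons of Ddit3 share 10.9% of their bases with other gene models, Mars on the opposite strand among them. Atf5, a bZIP factor linked to the mitochondrial stress response and to fat cell differentiation, had 113 to 143 CPM in control and 57.2, 73.4 and 103 CPM in TAD. Each TAD library was below each control, with TAD 3 nearest to them, and the log2 fold change was -0.71 ± 0.19 (adjusted p = 0.0265). It was not called without TAD 1 (-0.53, adjusted p = 0.0789), TAD 2 (-0.67, adjusted p = 0.0658) or 1 of controls 1, 2 and 4 (-0.70 to -0.67, adjusted p of 0.0505 to 0.0579). Summed markers of white adipocytes, brown adipocytes and endothelium were also lower without overlap in TAD, and those of macrophages and neutrophils higher, with the sums given above. Some single markers of these lists overlapped between the groups, among them Dio2, Pecam1, Vwf, C1qa and Camp. The part of these cells in the fall of Atf5 was not tested.

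**Figure D3:**
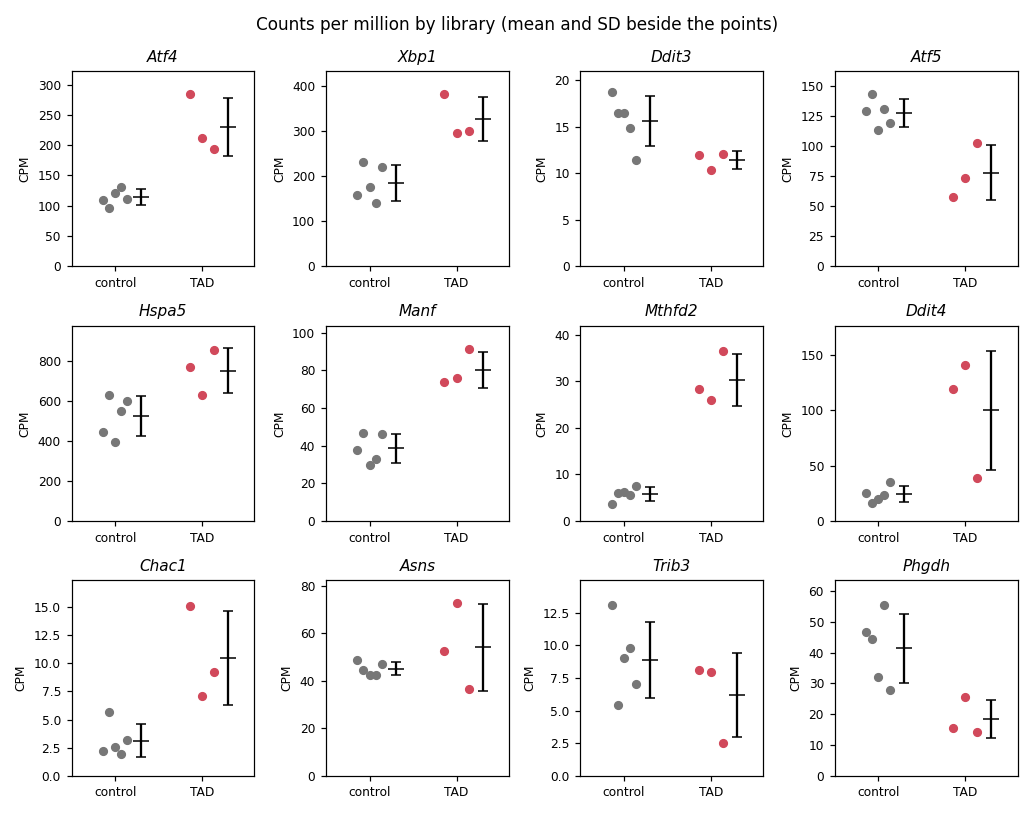
Each panel plots 1 gene's TMM-scaled CPM on an axis from 0, with a point per library (5 control, 3 TAD) and the mean and SD beside the points. Atf4, Xbp1, Manf, Mthfd2 and Chac1 have every TAD point above every control point, Atf5 and Phgdh every TAD point below, and Ddit3, Asns and Trib3 overlap.

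Among the chaperones, Manf and Dnajb11 rose and the other 12 did not pass. Manf, which codes for a small protein retained in the ER and secreted under stress, had 29.9 to 46.8 CPM in control and 73.7, 75.8 and 91.2 CPM in TAD. No TAD library came near the controls, and the log2 fold change was 1.05 ± 0.18 (edgeR adjusted p = 0.00364), a 2.07-fold rise that was called with each library left out. Other gene models share 9.25% of its exon bases. Dnajb11, a co-chaperone of BiP, had 60.3, 65.6, 45.3, 62.1 and 61.9 CPM in control and 84.1, 100 and 102 CPM in TAD. All TAD libraries exceeded all controls, with 0.69 ± 0.14 (adjusted p = 0.00866). Hspa5, the BiP gene and the usual reporter of ER stress, had 447, 628, 392, 549 and 601 CPM in controls 1 to 5 and 771, 628 and 852 CPM in TAD 1 to 3. TAD 2 stood level with control 2, and the log2 fold change of 0.52 ± 0.20 did not pass (adjusted p = 0.0867). DESeq2 called Hspa5 and Canx in addition to the 2 chaperones called by edgeR.

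The remaining chaperones had log2 fold changes from 0.00 to 0.88. Sdf2l1 (0.88 ± 0.40), a component of the BiP complex, Creld2 (0.64 ± 0.28) and the disulfide isomerase gene Pdia4 (0.55 ± 0.25) had the largest of them, and each had its highest value in TAD 3. Sdf2l1 stood at 29.8 CPM there against 14.5 and 17.1 CPM in TAD 1 and TAD 2 and 5.59 to 17.8 CPM in control. Pdia4 stood at 155 CPM in TAD 3, against 82.4 and 83.8 CPM in the other TAD libraries and 60.8 to 95.9 CPM in control. The lectin chaperone genes Calr (0.43 ± 0.19) and Canx (0.40 ± 0.15), which act on glycoproteins, had similar values. So did the disulfide isomerase genes Pdia6 (0.42 ± 0.18) and Pdia3 (0.40 ± 0.20). Hsp90b1, the GRP94 gene, had 0.29 ± 0.21, and other gene models share 15.7% of its exon bases. Dnajc3, which codes for a BiP co-chaperone also known as an inhibitor of eIF2α kinases, had 0.23 ± 0.19. Hyou1 (0.08 ± 0.21), a nucleotide exchange factor of BiP, and Dnajb9 (0.00 ± 0.12), an IRE1α-regulating co-chaperone, lay at 0 within their errors. Dnajb9 turned negative after upper-quartile scaling (-0.05), and both turned negative after rescaling to TPM (-0.15 and -0.07), so 12 to 14 of the 14 chaperones were positive over the settings.

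Of the degradation genes, Syvn1 rose by little and the other 3 did not pass. Syvn1, the ubiquitin ligase HRD1, had 43.4 to 57.4 CPM in control and 71.8, 78.4 and 57.7 CPM in TAD. TAD 3 and the highest control differed by less than 1 CPM, and the log2 fold change was 0.46 ± 0.15 (edgeR adjusted p = 0.0464). The call was lost with any 1 library other than TAD 3 left out (0.36 to 0.51, adjusted p of 0.0539 to 0.127) and with upper-quartile scaling. Herpud1, a membrane protein gene of the same ligase complex, had 138, 96.8, 94.1, 97.3 and 85.1 CPM in control and 88.6, 49.1 and 56.0 CPM in TAD. TAD 2 and TAD 3 lay below every control and TAD 1 did not, and the log2 fold change of -0.66 ± 0.23 did not pass (adjusted p = 0.0664). Without TAD 1 it was -0.97 and passed (adjusted p = 0.0185), and DESeq2 also called it lower. Sel1l (-0.13 ± 0.12), the partner of HRD1, and Edem1 (-0.04 ± 0.17), a lectin-like factor that delivers glycoproteins for degradation, were near 0.

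Of the ATF4 targets, Mthfd2, Ddit4, Chac1 and Aldh18a1 rose, Phgdh fell and the other 6 did not pass. Mthfd2, a mitochondrial folate enzyme gene that is low in most adult tissue, had 3.67, 6.07, 6.19, 5.50 and 7.60 CPM in controls 1 to 5 and 28.4, 26.0 and 36.5 CPM in TAD 1 to 3. The lowest TAD library was over 3 times the highest control. The log2 fold change of 2.38 ± 0.24 (edgeR adjusted p = 0.000507) was the largest of the 36, a 5.21-fold rise called with each library left out and under every other setting. Ddit4, which codes for the mTORC1 inhibitor REDD1 and also responds to glucocorticoids and hypoxia, had 25.7, 16.0, 19.8, 23.6 and 35.6 CPM in control and 119, 141 and 39.2 CPM in TAD. TAD 3 stood just above control 5 and far below the other TAD libraries, and the log2 fold change was 2.05 ± 0.40 (adjusted p = 0.00667). It did not pass without control 1 and TAD 1 (1.93, adjusted p = 0.0535) or without control 1, control 2 and TAD 2 (1.56, adjusted p = 0.0664). Chac1, whose enzyme breaks down glutathione, had 1.98 to 5.70 CPM in control and 15.1, 7.09 and 9.26 CPM in TAD, from 27 to 184 counts. The groups did not overlap, and the log2 fold change was 1.74 ± 0.41 (adjusted p = 0.0152), or 1.37 without TAD 1 (adjusted p = 0.0704). Aldh18a1, which codes for the first enzyme of proline synthesis from glutamate, had 12.4 to 20.5 CPM in control and 30.2, 19.6 and 52.7 CPM in TAD, so TAD 2 lay inside the control range. Its log2 fold change was 1.15 ± 0.31 (adjusted p = 0.0268). It was not called without TAD 3 (0.69, adjusted p = 0.0899), TAD 1 (1.23, adjusted p = 0.0580) or 1 of controls 1, 4 and 5 (1.08 to 1.12, adjusted p of 0.0556 to 0.0629).

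Phgdh fell, while Psat1 of the same route did not pass. Phgdh, the first enzyme of serine synthesis from glycolysis, had 46.7, 44.5, 32.1, 55.5 and 27.9 CPM in control and 15.4, 25.5 and 14.2 CPM in TAD. Each TAD library was below each control, and the log2 fold change was -1.17 ± 0.29 (edgeR adjusted p = 0.0193), a 2.25-fold fall. It was not called without TAD 1 (-1.07, adjusted p = 0.0644) or TAD 3 (-1.02, adjusted p = 0.0549). Psat1, the next enzyme of the same route, had 7.56 to 34.3 CPM in control and 33.6, 24.6 and 32.8 CPM in TAD. Control 2, at 34.3 CPM, exceeded all TAD libraries while the other 4 controls stood at 13.3 CPM or less. The log2 fold change of 0.91 ± 0.43 did not pass (adjusted p = 0.147), and without control 2, the library rich in Ckm, it was 1.38 and passed (adjusted p = 0.00728). Shmt2 (0.39 ± 0.26), the mitochondrial serine hydroxymethyltransferase gene upstream of Mthfd2, did not pass. The sums of the same marker lists moved beside Phgdh, and the part of these cells in its fall was not tested.

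Asns, Trib3, Ppp1r15a and Sesn2 did not pass either. Asns, the asparagine synthetase gene, had 42.5 to 48.6 CPM in control and 52.6, 72.8 and 36.5 CPM in TAD, on both sides of the controls. Its log2 fold change was 0.26 ± 0.20 (edgeR adjusted p = 0.363), and without TAD 2, the library rich in Tubb3, it was -0.02. Trib3, a pseudokinase gene induced through ATF4 and CHOP, had 5.40 to 13.1 CPM in control and 8.14, 7.95 and 2.50 CPM in TAD, with -0.52 ± 0.44 (adjusted p = 0.408). Ppp1r15a, the GADD34 gene whose product returns eIF2α to its unphosphorylated form, had 16.0 to 46.1 CPM in control and 65.2, 35.99 and 40.1 CPM in TAD, with 0.50 ± 0.35 (adjusted p = 0.324). Sesn2, a stress-induced inhibitor of mTORC1, had 14.7 to 37.5 CPM in control and 44.4, 32.3 and 32.5 CPM in TAD, with 0.68 ± 0.29 (adjusted p = 0.110). Control 4 was the high control for Sesn2, and without it the log2 fold change was 0.94 and passed (adjusted p = 0.0163).

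Ratios of counts within a library do not depend on scaling between libraries. For Ddit3, Atf5 and the 11 ATF4 targets, the count was divided by that of Atf4 in the same library, a family of 13 ratios chosen after the counts were seen. All of them share the Atf4 denominator, which rose itself. Reads of Ddit3 per read of Atf4 were 0.170, 0.172, 0.137, 0.114 and 0.103 in controls 1 to 5 and 0.0419, 0.0488 and 0.0618 in TAD 1 to 3. No TAD library reached the lowest control, and the mean log2 ratio differed by -1.44. An exact two-sided permutation test over the 56 assignments of libraries to groups gave p = 0.0179. That is the smallest p it can give (0.0464 after Benjamini-Hochberg adjustment over the 13). The log2 fold change was -0.45 for Ddit3 itself, which did not pass, and 1.02 for Atf4. The difference thus includes the rise of Atf4, and this p is no test of Ddit3 alone. The ratio also did not overlap and was lower in TAD for Phgdh (-2.19), Atf5 (-1.75) and Trib3 (-1.65), each at this p. For Phgdh and Atf5 the lack of overlap was fixed beforehand. Their CPM lay below every control in each TAD library, and that of Atf4 above. For Ddit3 and Mthfd2 the lack of overlap follows from the CPM ranges of the groups given above, whichever libraries are combined. The ratios of these 4 genes therefore add no separate result. Mthfd2 was the gene with a ratio higher in all 3 TAD libraries than in all controls (0.100 to 0.188 against 0.0334 to 0.0684, log2 difference 1.40, the same exact p). The ratio of Asns overlapped between the groups and differed by -0.80 (exact p = 0.0357, adjusted 0.0774). The other 7 ratios overlapped as well, with exact p of 0.0714 to 0.929, and those of Psat1 (0.09) and Aldh18a1 (0.05) lay near 0.

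**Figure D4:**
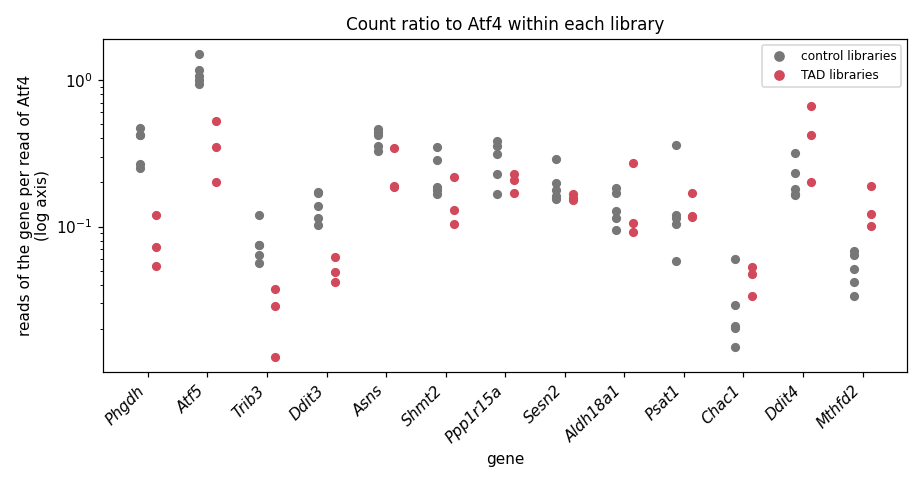
The vertical log axis gives reads of each gene per read of Atf4 in the same library, for 13 genes ordered by the change of the ratio, with grey points for the 5 control and red points for the 3 TAD libraries. Phgdh, Atf5, Trib3 and Ddit3 at the left have every TAD point below every control point, and Mthfd2 at the right has every TAD point above.

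Levels between genes were compared as CPM per kilobase of merged exons (GENCODE M21), not as the deposited FPKM. The gene length implied by a member's deposited count and FPKM was 1.01 to 4.72 times its merged exon length and over 1.5 times for 24 of the 36. For Atf4 it was 4450 bases, where the gene spans 2358. In control, Calr (128 ± 17.8 CPM per kb, SD, n = 5) and Hspa5 (124 ± 23.8 CPM per kb) were highest and did not differ beyond their spread, ahead of Pdia3 (93.0 ± 14.1 CPM per kb). Canx (64.7 ± 5.85 CPM per kb), Atf5 (63.7 ± 5.81 CPM per kb), Xbp1 (56.7 ± 12.0 CPM per kb), Hsp90b1 (52.1 ± 8.41 CPM per kb) and Atf4 (48.1 ± 5.58 CPM per kb) came next, each within the spread of its neighbour. The lowest were Mthfd2 (1.67 ± 0.408 CPM per kb), Chac1 (1.91 ± 0.920 CPM per kb), Aldh18a1 (3.78 ± 0.859 CPM per kb) and Psat1 (3.78 ± 2.45 CPM per kb), all ATF4 targets. In TAD, Hspa5 (177 ± 26.7 CPM per kb, SD, n = 3), Calr (173 ± 42.2 CPM per kb) and Pdia3 (123 ± 31.3 CPM per kb) were again highest, and Xbp1 (100.2 ± 14.9 CPM per kb) and Atf4 (97.6 ± 20.1 CPM per kb) followed. Ddit4 stood at 13.8 ± 4.21 CPM per kb in control and 56.9 ± 30.6 CPM per kb in TAD. Mthfd2 stood at 8.69 ± 1.58 CPM per kb in TAD, within the spread of Phgdh (7.39 ± 2.51 CPM per kb), which had 16.6 ± 4.51 CPM per kb in control.

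Other genes of both responses were listed by function, with earlier results of these data known, and were read from the same edgeR test. Of 28 further genes of ER translocation, folding and glycosylation, 14 rose (50%) and 1 fell (3.57%), beside 15.2% and 11.8% of all genes tested. Their median log2 fold change was 0.58. The largest changes were those of Fkbp11 (2.58 ± 0.47), a prolyl isomerase gene of secretory cells, the signal peptidase subunit gene Spcs3 (1.24 ± 0.22), the translocon gene Sec61b (1.00 ± 0.13) and the oligosaccharyltransferase subunit gene Ostc (0.99 ± 0.14). Each of these was called with each library left out (adjusted p of at most 0.0217). With the replicate block Fkbp11, Spcs3 and Ostc were not called (edgeR adjusted p of 0.0545 to 0.0652). Fkbp11 had only 12 to 36 counts per control library. Creld1 (-0.82 ± 0.21), a relative of Creld2 named here after its values were seen, fell. Of 23 further degradation and membrane-bound bZIP genes, 5 rose (21.7%) and 1 fell (4.35%), with a median of 0.17. Among those that rose were Selenos (0.82 ± 0.13), the bZIP gene Creb3 (0.70 ± 0.12) and the ubiquitin-conjugating enzyme gene Ube2j1 (0.67 ± 0.13). Mbtps1 (-0.56 ± 0.16), the protease that cleaves ATF6, fell but was not called without TAD 1, TAD 2 or 1 of controls 2 to 5 (adjusted p of 0.0521 to 0.110).

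Of 29 further ATF4 program genes tested, 9 rose and 5 fell, with a median of 0.27 and a range of -2.21 to 7.22. Slc7a11 (7.22 ± 0.68), the cystine transporter gene, and Slc7a5 (2.74 ± 0.31), the leucine transporter gene, rose. So did Mthfd1l (2.72 ± 0.23), the mitochondrial enzyme that follows Mthfd2 in the folate route, and Gdf15 (2.31 ± 0.52), a stress cytokine gene that was not called without TAD 1 (1.99, adjusted p = 0.0563). Slc7a11 had only 0 to 7 counts per control library, against 300 to 822 in TAD, and Gdf15 5 to 20 per control library. The size of both changes therefore rests on few control counts. The 5 that fell, named after their values were seen, were Vldlr (-2.21 ± 0.26), a lipoprotein receptor gene, Psph (-0.90 ± 0.19), the last enzyme of serine synthesis, the glutamine transporter gene Slc1a5 (-0.81 ± 0.14), the angiogenic factor gene Vegfa (-0.75 ± 0.20) and the bZIP gene Cebpg (-0.45 ± 0.14). Of 18 cytosolic aminoacyl-tRNA synthetase genes 11 rose and none fell (median 0.51). Hars stood at 1.04 ± 0.13, Tars at 0.83 ± 0.17, Nars at 0.82 ± 0.11 and Cars at 0.79 ± 0.15, each called with each library left out. Tars and Cars were not called after rescaling to TPM (limma adjusted p of 0.110 and 0.0926) or with the replicate block (edgeR adjusted p of 0.108 and 0.113). Nor were they without control 1 and TAD 1 (edgeR adjusted p of 0.0714 and 0.0551). Of 13 genes of eIF2, its kinases, phosphatase and exchange factor, 6 rose and none fell (median 0.27). They were led by Eif2s2 (0.91 ± 0.11), Eif2b2 (0.73 ± 0.18), Eif2b3 (0.69 ± 0.19) and Eif2s1 (0.56 ± 0.14). Eif2s2 was called with each library left out, Eif2b2 not without TAD 1 (adjusted p = 0.0680), and Eif2b3 (adjusted p of up to 0.119) and Eif2s1 (up to 0.0971) not without TAD 1 and several other single libraries. The lists were not tested as sets, and all genes tested had a median of 0.04, with 15.2% called higher and 11.8% lower.

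**Figure D5:**
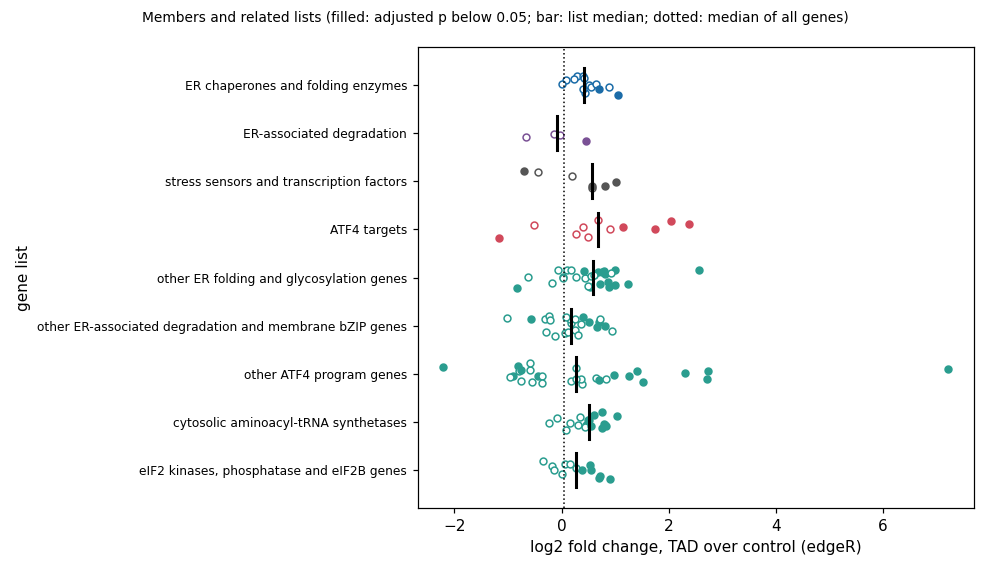
The horizontal axis gives the edgeR log2 fold change of TAD over control, each circle is 1 gene, filled where the adjusted p was below 0.05, and each row is a gene list with a bar at its median. List medians run from -0.09 for the 4 degradation members to 0.68 for the ATF4 targets, and the dotted line marks 0.04 for all genes tested. Slc7a11, with 0 to 7 counts per control library, lies farthest right at 7.22.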

How the data were processed

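Total RNA of aortic tissue was extracted with TRIpure and 200 ng went into NEBNext Ultra RNA libraries, per the labels' protocols, which do not give the strand. Tools named in the submitters' processing notes are HTSeq, HISAT2, fastp 0.23.1 and bcl2fastq 2.19; the builds named are human (GRCh38, hg38), although identifiers are mouse ones and the build used is not given in these sources. The deposited table gives, per the file headers, a raw count and an FPKM value (fragments scaled by a gene length, not given, and the library total) for each gene and library. Molecular identifiers are not mentioned.

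Groups came from the titles. Counts were filtered with filterByExpr, scaled by TMM and tested with edgeR 4.0.16 (R 4.3.3) over all genes, without covariates, at an adjusted p below 0.05. A standard error is |log2 fold change|/√F. CPM uses TMM-scaled totals; for log2 CPM the prior count was 2. Common dispersion gave a biological coefficient of variation of 41.6%. The script was tested on simulated data. Exon overlaps used GENCODE M21. Alternatives were DESeq2 1.42.0, upper-quartile scaling, limma 3.58.1 on log2(FPKM + 1) and log2(TPM + 1) at a mean of at least 0.5 FPKM, no filter, a replicate block and left-out libraries. TPM was rescaled from FPKM and carries its lengths. Members, lists and tests were chosen with earlier results of these data known. All members are named; from each related list the 4 called genes with the largest change are named, and others are marked. Fgf21 and 16 of the listed marker genes were not analysed here.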

Additional observations from a re-analysis of the deposited data

Results flagged for a closer look

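In 4 of the 36 genes, 1 control library stood apart from the other 4 by a gap test on log2 CPM (Dixon's ratio above 0.71, which chance exceeds in about 1 of 20 groups). Control 3 had 45.3 CPM of Dnajb11, and the remaining controls had 60.3 to 65.6 CPM. Control 1, the library with the most cardiomyocyte marker RNA, stood apart for the other 3. Herpud1 had 138 CPM there against 85.1 to 97.3 CPM, Ern1 26.4 CPM against 37.3 to 42.8 CPM, and Atf6 102 CPM against 81.2 to 86.6 CPM.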

How the results depend on the processing

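Of 576 values of members under 16 alternatives, 490 kept their direction and side of the threshold, 50 were no longer called, 14 became called and 22 changed sign. DESeq2 called 4 chaperones higher. Rescaling to TPM left 5 members higher, 1 of them a chaperone. Whether the replicate numbers pair the libraries was not settled. Deviations of same-numbered libraries correlated at 0.43, 0.10 and 0.54. TAD 1 correlated best with control 1 and TAD 3 with control 3, but TAD 2 correlated best with control 1 (0.36). With the replicate block edgeR called 1255 genes, 4 members higher, 1 lower and 0 chaperones (2 at an unadjusted p below 0.05; DESeq2 without a block called 4). Without control 1 and TAD 1 the counts were 1963 genes, 4 members higher, 1 lower and 1 ATF4 target, and the median gap was -0.0019. Without control 1, control 2 and TAD 2 there were 1 lower and 1 chaperone. With single libraries left out, members called higher ranged from 5 to 10, lower from 1 to 2, ATF4 targets from 2 to 5, chaperones stayed at 2, all genes from 2549 to 3728, and the gap from -0.0037 to 0.48. Uncalled values near 0 changed sign: Dnajb9 (-0.016 by DESeq2, -0.052 upper-quartile, -0.15 TPM, -0.0017 unfiltered, -0.038 and -0.030 without the 2 sets of libraries, -0.042 to 0.074 with single libraries out), Edem1 (0.0059 by limma, 0.089 with the block, -0.14 to 0.026 with single libraries out), Hyou1 (-0.068 TPM, -0.096 to 0.18), Asns (-0.0023 without control 1, control 2 and TAD 2; -0.016 to 0.48) and Atf6 (-0.0037 to 0.34). The ratios to Atf4 of Psat1 (-0.19 to 0.47) and Aldh18a1 (-0.43 to 0.35) changed sign. The causes were not tested. Depth limits low members such as Chac1 (27 counts in its lowest library).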
